A study of Mus musculus with 92 samples.

Results

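Genes that mark classical and patrolling monocytes, Ccr2, Cx3cr1, Fn1, Vcan, Nr4a1 and Treml4, were followed across the mouse myeloid libraries of a study of microglia replacement. They were chosen by gene symbol, and each of the 6 symbols matched one of the 29956 named genes of the deposited table. The study compared primary marrow cells with ER-Hoxb8 cells, marrow progenitors whose growth is held by an estradiol-dependent Hoxb8, in culture and after transfer into brain. It also compared Adar1-targeted with control ER-Hoxb8 cells, and treated both with baricitinib, a JAK1 and JAK2 inhibitor. All values come from bulk RNA sequencing, so fewer cells of a type and less RNA per cell cannot be told apart.

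The cells came from FVB mice. Marrow progenitors were depleted of lineage-positive cells (3 libraries), and marrow monocytes were enriched on magnetic columns (3 libraries). Bone marrow-derived (BMD) macrophages had 7 days of M-CSF (3 libraries). ER-Hoxb8 progenitors carried the ER-Hoxb8 retrovirus and were kept in beta-estradiol and GM-CSF, and they were sequenced at day 0, day 4 and day 7 of macrophage differentiation (3 libraries each). These ER-Hoxb8 cells from culture are labelled as coming from Cas9-heterozygous mice, while the marrow cells, the BMD macrophages and all cells from brain are labelled wild-type. Where ER-Hoxb8 cells from culture are compared with marrow cells or with ER-Hoxb8 MLCs, line or setting and genotype label cannot be told apart. Microglia-like cells (MLCs) were donor cells injected into the brains of newborn Csf1r-/- pups, hosts that lack microglia, and sorted about 2 weeks later as CD45+/CD11B+ cells. There were 6 BMD MLC libraries and 6 ER-Hoxb8 MLC libraries, of which 3 carried GFPHox names and 3 WTHox names, and 9 libraries of microglia from wild-type mice, of which replicates 8 and 9 carried YSWT names.

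The guide experiment used ER-Hoxb8 lines from Cas9-heterozygous mice, so its controls carried Cas9 too. Cells with a non-targeting control guide (NTC) gave 3 progenitor and 3 macrophage libraries. Libraries labelled Adar1 KO came from sorted pools rather than single clones, with sgRNA 1 (3 progenitor, 3 macrophage) or sgRNA 2 (3 progenitor, 5 macrophage). The study's methods give no separate transductions for the replicates of a guide, so p-values may leave out differences between pools. In the inhibitor experiment, sequenced elsewhere, NTC and Adar1 KO macrophages, the latter all labelled sgRNA 1, received baricitinib at each media change over 7 days. The column titles give doses of 0, 0.0006, 0.016, 0.4 and 10 µM with 3 or 4 libraries a group (33 in all). The protocol writes the 0.0006 and 0.016 µM doses with other figures, so these are named here as in the titles and no test compares them. Their libraries share the fit of the inhibitor experiment, so they enter its filter and its pooled spread.

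The deposited values are log2 counts per M (CPM), and they fall into 6 normalizations, each with a lowest value of its own. Within a normalization, libraries were compared; across normalizations, values only stand side by side. Total counts per library, in M (mega) counts and estimated from the spacing of the deposited values, ran from 33.2 to 52.2 M in the marrow and early ER-Hoxb8 libraries and from 9.47 to 35.6 M in the day 7 and brain libraries. They ran from 22.3 to 34.3 M for NTC and sgRNA 1, from 17.2 to 28.6 M for sgRNA 2, and from 6.16 to 32.6 M in the inhibitor experiment. NTC macrophage replicate 2 (20.1 M) was deposited in a normalization of its own and enters no comparison. A count of 3 in a library was taken as the floor, and floors cover counting error only. Genes were tested by limma where CPM, with the lowest level of the normalization taken off, exceeded 1 in at least 3 libraries (6 for the day 7 and brain libraries). A gene is called where its p-value, adjusted by Benjamini-Hochberg over all genes tested, is below 0.05. All 6 members passed that filter in the marrow and early ER-Hoxb8 libraries and in the day 7 and brain libraries, 5 with sgRNA 1, 3 with sgRNA 2 and 4 in the inhibitor experiment. Changes are differences of log2 CPM with their SE.

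Classical monocytes leave the marrow through CCR2 and are recruited into inflamed tissue, while patrolling monocytes survey the vessel wall, carry much CX3CR1 and depend on the nuclear receptor NR4A1. In mice the classical cells can give rise to the patrolling ones, and in the brain CX3CR1 is a mark of microglia, whose partner ligand is made by neurons. Monocytes that enter tissue lose much of their classical gene set as they become macrophages. CCR2 is the receptor for CCL2 and CCL7, and CX3CR1 is the receptor for the membrane-bound chemokine CX3CL1. Fn1 encodes fibronectin and Vcan encodes versican, matrix proteins that classical monocytes express. Treml4 encodes a TREM-like receptor found on patrolling monocytes and on some splenic macrophages and dendritic cells.

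The promoters of 5 of the 6 members were in the RefSeq table for GRCm38.p6 (300 bases around the start of the gene), and 3 are shown because they hold letters searched and their genes changed between NTC and Adar1 KO macrophages or with baricitinib. Letters searched on both strands were TGACG (the core of a cyclic AMP response element), TTCNNNGAA (a gamma-activated site), GAAANNGAA (an interferon-stimulated response element core) and GAGGAA (a PU.1-type ETS core). They occur in 20.8%, 8.30%, 8.56% and 28.3% of the 32851 promoters of the table. The Nr4a1 promoter (chr15:101266596-101266895, plus strand) holds TGACG 4 times, marked in capitals as its reverse complement, and the NR4A genes are classical targets of cyclic AMP signalling. The Ccr2 promoter (chr9:124101933-124102232, plus strand) holds GAAANNGAA 1 time, also in reverse complement. The Treml4 promoter (chr17:48264045-48264344, plus strand) holds GAGGAA 2 times in the same orientation. The Cx3cr1 and Vcan promoters hold none of the 4 motifs, and TTCNNNGAA is in none of the 5. A match here is a description of letters, not a site.
Nr4a1: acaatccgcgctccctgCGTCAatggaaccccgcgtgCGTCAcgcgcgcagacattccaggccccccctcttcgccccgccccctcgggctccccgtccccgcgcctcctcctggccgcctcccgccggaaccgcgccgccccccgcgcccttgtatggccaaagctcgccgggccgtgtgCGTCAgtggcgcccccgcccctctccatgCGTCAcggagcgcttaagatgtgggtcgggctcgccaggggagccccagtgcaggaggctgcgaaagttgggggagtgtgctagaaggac
Ccr2: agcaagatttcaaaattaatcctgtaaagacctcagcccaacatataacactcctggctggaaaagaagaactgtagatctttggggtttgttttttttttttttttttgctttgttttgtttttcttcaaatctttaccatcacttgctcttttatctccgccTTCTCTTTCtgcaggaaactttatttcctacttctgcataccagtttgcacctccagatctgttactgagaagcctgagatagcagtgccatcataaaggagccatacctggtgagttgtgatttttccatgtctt
Treml4: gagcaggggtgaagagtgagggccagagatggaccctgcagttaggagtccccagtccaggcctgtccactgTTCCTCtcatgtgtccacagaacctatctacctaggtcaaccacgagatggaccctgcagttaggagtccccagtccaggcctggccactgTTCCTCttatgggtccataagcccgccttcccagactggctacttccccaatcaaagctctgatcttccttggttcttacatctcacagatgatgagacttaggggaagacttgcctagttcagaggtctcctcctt

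Adar, the gene the guides target, was read first in each guide library. Its mRNA level shows whether the RNA differs with the label, and it does not measure editing or loss of the protein. Progenitors labelled Adar1 KO with sgRNA 1 read 4.36, 4.23 and 4.24 log2 CPM against 4.20, 3.42 and 4.28 in NTC progenitors. Macrophages labelled Adar1 KO with sgRNA 1 read 6.96, 7.15 and 7.01 against 5.73 and 5.67 in NTC macrophages, and Adar was called higher (1.34 ± 0.21 log2 units, SE, adjusted p 0.000976). In the inhibitor experiment Adar read 7.42, 6.52 and 6.37 in untreated libraries labelled Adar1 KO against 5.12, 4.94 and 4.69 in untreated NTC (1.85, adjusted p 0.0051). At 0.4 µM it read 4.12, 7.38 and 4.21 against 4.50, 4.22, 4.29 and 3.92 (1.01, adjusted p 0.136), so Adar1 KO replicate 2 alone lay among the untreated Adar1 KO libraries. At 10 µM it read 1.55, 2.15, 2.91 and 2.03 in libraries labelled Adar1 KO against 3.70, 3.64 and 3.22 in NTC (−1.36, adjusted p 0.0146). With sgRNA 2, Adar lay between 4.35 and 4.56 in progenitors and between 6.99 and 7.03 in macrophages, with no NTC library to compare. With sgRNA 1, no untreated comparison with NTC called Adar lower. By the study's methods, editing of such lines was shown on genomic DNA by Sanger sequencing across the cut site, which the deposited table does not hold.

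Several libraries stood apart from their group. Among ER-Hoxb8 progenitors the progenitor markers (Kit, Cd34, Flt3 and Mpo) summed to 5.76, 4.71 and 11.21 log2 CPM in replicates 1, 2 and 3, and their most abundant gene was Kit, Cd34 and Mpo. Day 4 cells summed to 4.95, 5.15 and 4.96, so by these sums replicates 1 and 2 lay near day 4 and replicate 3 did not; none of the 4 markers was at the floor. Across all genes, though, replicate 1 correlated most with replicate 3 of its own group (r 0.901). Replicate 2 correlated most with day 4 replicate 2 (r 0.984 across 12056 genes, which are not independent replicates) and less with its own group (0.845 to 0.890). Results on ER-Hoxb8 progenitors are therefore given with and without these libraries, a choice made after their markers were seen.

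Among ER-Hoxb8 MLCs the 4 microglia markers, led by P2ry12 or Tmem119, summed to 11.49, 11.18 and 10.05 in the GFPHox libraries (replicates 1 to 3) and to 8.34, 8.20 and 5.58 in the WTHox libraries (replicates 4 to 6). BMD MLCs ran from 10.24 to 11.80 and microglia from 14.61 to 14.98, and none of the 4 was at the floor in these groups. The 8 neutrophil markers, led by Ngp, ran from 12.22 to 15.07 in BMD MLCs. They summed to 9.69, 8.04 and 8.53 in the GFPHox libraries and to 14.32, 15.44 and 11.82 in the WTHox libraries, against 8.78 to 12.66 in microglia and 1.72 to 5.56 in macrophages from culture. ER-Hoxb8 MLC replicate 6 also held the highest dendritic cell markers of its group (7.59, led by Cd209a, against 2.36 to 4.45). Its lymphocyte and NK cell markers summed to 6.38, led by Ncr1, and were not set against the rest of its group here. Microglia replicate 8 correlated with its own group at 0.667 to 0.812 and held the oligodendrocyte markers Mbp and Mog at a sum of 6.81, led by Mbp with Mog at the floor, against 3.07 to 5.56 in the other 8. In the inhibitor experiment, Adar1 KO replicate 2 at 0.4 µM was closest to a library of the 0.016 µM group (r 0.947, own group 0.888 to 0.891, across genes). The part of these markers in the results was not tested.

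Marrow monocytes over marrow progenitors asked what distinguishes the enriched monocytes. Fibronectin and versican mRNA were far higher in monocytes, and all 6 members were higher in each monocyte library than in each progenitor library. Of the 12056 genes tested, 22.6% were likewise higher without overlap and 26.4% lower, and 13.8% were called. Fn1 read 6.22, 7.17 and 6.99 log2 CPM in progenitors and 11.42, 11.38 and 11.44 in monocytes. Vcan read 0.52, 0.61 and 0.56 in progenitors and 6.63, 5.94 and 7.14 in monocytes. Monocytes were thus high for both matrix genes in 3 of 3 libraries, with no overlap. Fn1 was 24.6-fold higher (4.62 ± 0.86 log2 units, adjusted p 0.00617) and Vcan 64.3-fold higher (6.01 ± 0.78, adjusted p 0.00109). These 2 of 6 members passed limma's moderated test, against the same 13.8% of all genes.

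The receptor genes pointed the same way but did not pass. Ccr2 read 6.55, 7.02 and 6.79 in progenitors and 10.54, 9.97 and 9.83 in monocytes (3.32 ± 2.00, adjusted p 0.289). Cx3cr1 read 5.47, 4.38 and 5.02 in progenitors and 8.59, 7.92 and 7.31 in monocytes (2.98 ± 1.68, adjusted p 0.257). Monocytes were the higher group in both, with no overlap. Nr4a1 read 4.27, 3.70 and 3.87 against 6.00, 6.20 and 4.98 (1.78 ± 0.63, adjusted p 0.0812), and Treml4 read 3.45, 3.64 and 4.06 against 5.86, 5.91 and 5.70 (2.10 ± 1.44, adjusted p 0.351). The SE pools the spread of all 4 groups of this normalization, and ER-Hoxb8 progenitors spread widely (Ccr2 from 1.49 to 9.33). With only the 2 marrow groups fitted 6 of 6 members passed, against 32.6% of all genes, and with a weight per library 6 of 6, against 43.6%. With only the 2 groups, Ccr2 had an adjusted p of 0.000107 (0.000107 to 0.471 over its alternatives), Cx3cr1 0.000949 (0.000949 to 0.428), Nr4a1 0.00579 (0.00413 to 0.225) and Treml4 0.000448 (0.000448 to 0.544).

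Of 7 other classical genes, 3 rose and 0 fell in monocytes: F13a1, a clotting factor subunit, by 3.59 log2 units, Mgst1 by 3.02 and Ly6c2, the classical surface marker, by 2.79. Their list median was 3.02 against −0.09 over all genes. Of 11 other patrolling genes, 2 rose: Ceacam1 by 2.38 and Cebpb, a transcription factor that patrolling monocytes need, by 2.25 (list median 1.23). The lymphocyte and NK cell markers, led by Cd79a, summed to 6.69, 8.98 and 8.55 in progenitors and to 4.55, 4.74 and 4.79 in monocytes, with 3 of 4 lower and none at the floor. Progenitor markers stayed high in the monocyte libraries (12.02, 12.22 and 12.36, led by Mpo, against 12.38, 13.13 and 13.44), and their part in the result was not tested.

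**Figure D1:**
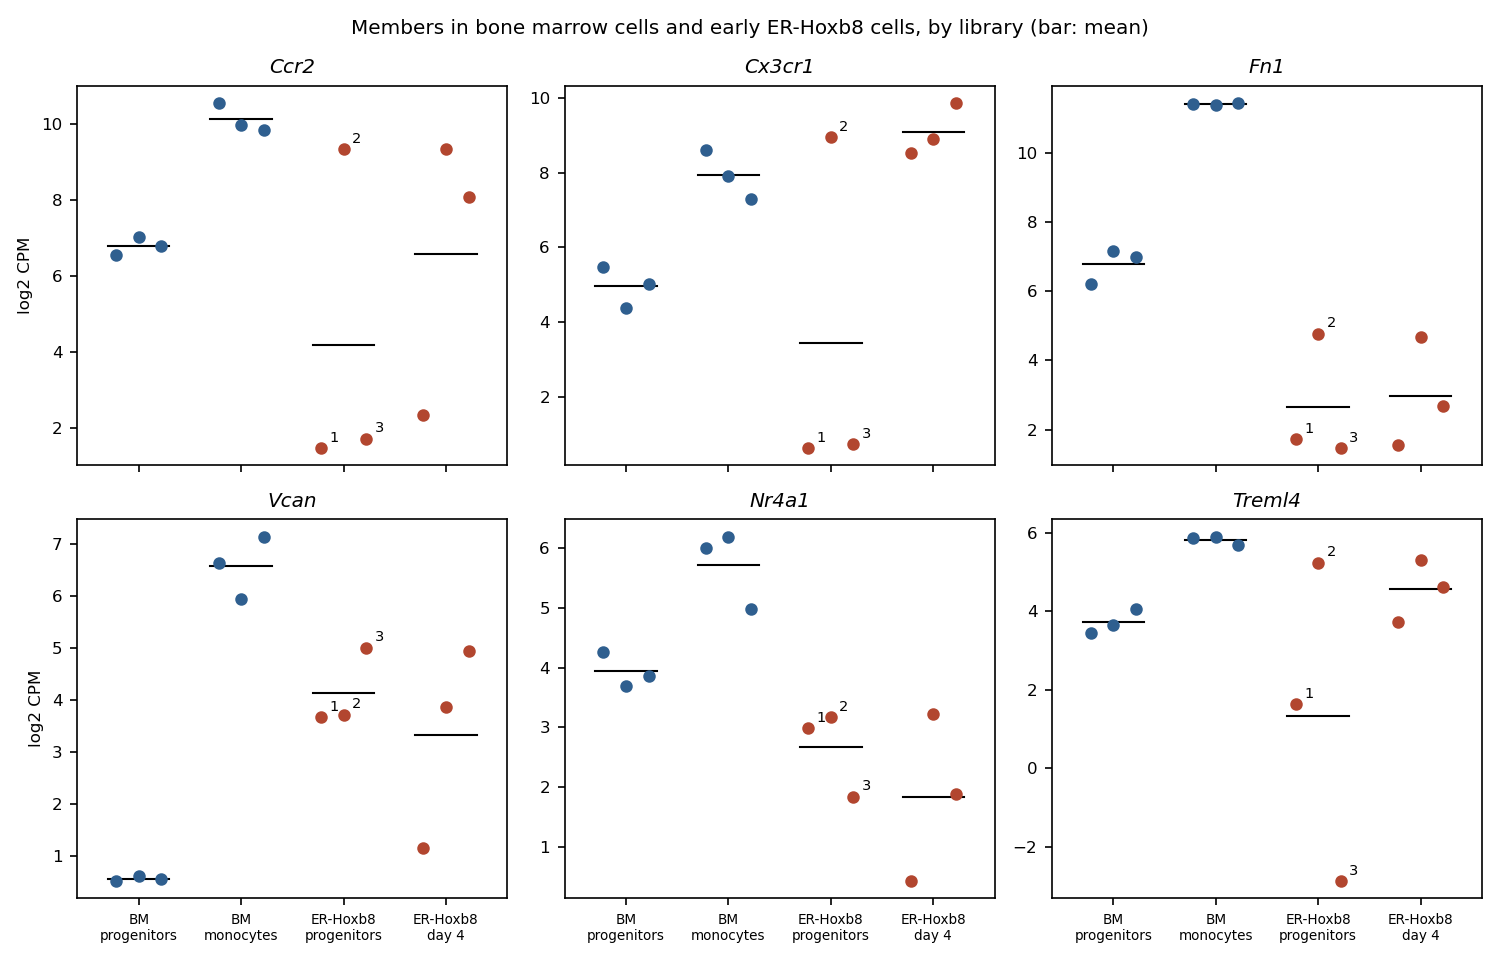
Log2 CPM of the 6 members in marrow progenitors, marrow monocytes, ER-Hoxb8 progenitors and ER-Hoxb8 day 4 cells; each dot is a library (3 a group), each bar a group mean, and ER-Hoxb8 progenitor replicates carry their number. Ccr2 in ER-Hoxb8 progenitor replicate 2 sits at 9.33, beside 1.49 and 1.73 in the other two.

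ER-Hoxb8 progenitors over marrow progenitors asked how the conditionally immortalized cells differ from primary ones. The matrix genes moved in opposite directions: versican was higher and fibronectin lower in the ER-Hoxb8 cells. Vcan read 3.67, 3.72 and 5.01 in ER-Hoxb8 progenitors, and Fn1 read 1.71, 4.77 and 1.47. Each ER-Hoxb8 library was above the marrow progenitors for Vcan and below them for Fn1, with Fn1 highest in replicate 2. Vcan rose by 3.57 ± 0.78 log2 units (adjusted p 0.00565) and Fn1 fell by 4.14 ± 0.86 (adjusted p 0.00435). These 2 of 6 passed, against 25.5% of all genes. Without ER-Hoxb8 progenitor replicate 2 the Fn1 change was −5.20, and without replicate 3 it was −3.55.

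The other members divided by library. Ccr2 read 1.49, 9.33 and 1.73 in ER-Hoxb8 progenitors. Cx3cr1 read 0.64, 8.95 and 0.74, and Treml4 read 1.64, 5.24 and −2.88. Replicate 2 alone was above every marrow progenitor library for these 3 genes, and the other two were below. Nr4a1 read 2.99, 3.17 and 1.84, each below the marrow progenitors. Without replicate 2, 5 of 6 passed, against 28.3% of all genes: Ccr2 by −5.18 (adjusted p 0.0244, 0.0244 to 0.748 over alternatives), Cx3cr1 by −4.27 (7.3e-05, up to 0.976) and Treml4 by −4.34 (0.00741, 1.61e-05 to 0.82) were added. Without replicates 1 and 2 the changes were −4.22 for Cx3cr1, −5.32 for Fn1, 4.44 for Vcan and −6.60 for Treml4, on a single ER-Hoxb8 progenitor library.

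Of the 7 other classical genes, 0 passed limma's test in this comparison and 3 had an unadjusted p under 0.05 (list median −0.70 against −0.08). Of the 11 patrolling genes, 1 rose, Cebpb by 1.98, and 3 fell: Emr4, an older symbol of Adgre4 (−5.12), Ace (−3.97) and Eno3 (−3.80). All 8 neutrophil markers fell, as did all 4 progenitor markers and all 4 lymphocyte and NK cell markers. The neutrophil markers summed to 10.74, 13.85 and 13.12 in marrow progenitors, led by Elane or Ngp, and to 5.03, 5.36 and 8.71 in ER-Hoxb8 progenitors, where 1 of 8 was at the floor in replicate 1. The part of these cells in the result was not tested.

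Day 4 over day 0 asked what the first days of differentiation change, and here no member passed. Cx3cr1 read 8.52, 8.90 and 9.86 at day 4 (5.65 ± 1.68, adjusted p 0.497). Treml4 read 3.74, 5.31 and 4.63 (3.23 ± 1.44, adjusted p 0.521), and Ccr2 read 2.34, 9.34 and 8.06 (2.40, adjusted p 0.696). For Cx3cr1 the day 4 libraries all lay near progenitor replicate 2 and far above the other two. With limma, 0 of 6 members passed and 0% of all genes, and 2 of 6 had an unadjusted p under 0.05. Without ER-Hoxb8 progenitor replicate 2, 2 of 6 passed, against 11.1% of all genes: Cx3cr1 rose by 8.40 (adjusted p 8.74e-06, range 8.74e-06 to 0.873) and Treml4 by 5.18 (0.00803, range 1.09e-05 to 0.873). Without replicates 1 and 2 the changes were 8.35 for Cx3cr1 and 7.44 for Treml4, on a single ER-Hoxb8 progenitor library. Replicates 1 and 2 were left out after their markers were seen to lie near day 4, so these changes are no independent test.

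Day 4 ER-Hoxb8 cells over marrow monocytes compared the immortalized intermediate with the primary cell. Fibronectin, versican and Nr4a1 were lower in the ER-Hoxb8 cells. Fn1 read 1.56, 4.67 and 2.69 at day 4, Vcan 1.15, 3.87 and 4.94, and Nr4a1 0.43, 3.22 and 1.89. In each case the 3 day 4 libraries lay below the 3 monocyte libraries, with replicate 1 lowest. Likewise 21.4% of all genes were lower without overlap, and 19.1% higher. Fn1 was 347-fold lower (−8.44 ± 0.86, adjusted p 5.14e-05). Nr4a1 fell by 3.88 ± 0.63 (adjusted p 0.0013) and Vcan fell by 3.25 ± 0.78 (adjusted p 0.0134). These 3 of 6 passed, against 17.5% of all genes. Without monocyte replicate 3 the Vcan call was lost (−2.96, adjusted p 0.0563, range 0.00138 to 0.0563). Without day 4 replicate 1 the changes were −7.73 for Fn1, −2.17 for Vcan and −3.18 for Nr4a1; without replicate 2 they were −9.29 for Fn1 and −4.57 for Nr4a1; and without replicate 3 Vcan was −4.06.

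The other 3 members did not pass: Cx3cr1, whose groups overlapped (1.16, adjusted p 0.702), Ccr2 (−3.53 ± 2.00, 0.272) and Treml4 (−1.26, 0.616). Ccr2 passed with a weight per library (−4.48, adjusted p 0.0412, range 0.0412 to 0.72) and Treml4 with only the 2 groups fitted (−1.26, 0.0458, range 0.0458 to 0.823). These fits called 29.8% and 22.6% of all genes. Among the 7 other classical genes, 3 fell: Plac8 (−7.68), Hp (−5.34) and Ly6c2 (−4.77; list median −4.25 against −0.01). Of the 11 patrolling genes, 5 fell, among them Emr4 (−6.92) and Eno3 (−4.29; list median −2.37). The ligands went the other way: 2 of 3 rose, Ccl7 by 7.83 and Cx3cl1 by 4.96. Neutrophil markers fell in 7 of 8, from sums of 10.46, 13.42 and 12.78 in monocytes to 5.46, 5.94 and 5.78 at day 4, led by S100a8, with 1 of 8 at the floor in each day 4 library; their part was not tested.

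Across these 4 groups, monocytes had the highest mean of 5 members, with no overlap with the next group, and day 4 cells had the highest mean of Cx3cr1, overlapping monocytes. Marrow progenitors came next for Ccr2, Fn1 and Nr4a1. For Fn1 and Nr4a1 they also stood clear of both ER-Hoxb8 groups, while for Ccr2 they overlapped day 4 cells. For Treml4 day 4 cells came next, overlapping marrow progenitors, and for Cx3cr1 marrow progenitors came after monocytes, without overlap. For Vcan the marrow progenitors were lowest, below both ER-Hoxb8 groups without overlap. The ER-Hoxb8 progenitors and day 4 cells overlapped for all 6 members.

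ER-Hoxb8 over BMD macrophages, both at day 7 of culture, asked whether the cultured macrophages carry these genes alike. Ccr2 read 3.13, 6.71 and 4.45 in ER-Hoxb8 macrophages and 2.08, 1.38 and 2.01 in BMD macrophages. Fn1 read 1.84, 2.72 and 1.66 against 4.61, 2.96 and 5.18. Neither pair overlapped, Ccr2 being higher and Fn1 lower in the ER-Hoxb8 cells, yet neither passed (2.94 ± 1.15, adjusted p 0.332, and −2.18 ± 0.87, adjusted p 0.352). Without overlap, 10.4% of all genes were higher and 9.43% lower. Cx3cr1 read 8.72, 9.29 and 1.81 in ER-Hoxb8 macrophages and 9.66, 2.97 and 10.43 in BMD macrophages. One library in each group was low, ER-Hoxb8 replicate 3 and BMD replicate 2, and the groups overlapped. With limma 0 of 6 members passed, 2 of them at an unadjusted p under 0.05, against 1.96% of all genes. With a weight per library 3 passed, against 18.3% of all genes: Ccr2 (3.58, adjusted p 6.64e-05, range 6.64e-05 to 0.841), Fn1 (−2.02, 0.00364, range 0.00364 to 0.932) and Treml4 (2.60, 0.00639, range 0.00639 to 1).

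Marrow cells in brain over marrow macrophages in culture asked what the brain setting changes. Ccr2 was far higher in the cells from brain. It ran from 6.96 to 7.70 (median 7.25) in the 6 BMD MLC libraries, and every one was above the BMD macrophages. Of all genes, 20.8% were likewise higher without overlap and 22.5% lower. The Ccr2 change was 44.4-fold (5.47 ± 1.00, adjusted p 0.000206), and Ccr2 was the 1 of 6 members called, against 30.6% of all genes. Cx3cr1 ran from 9.98 to 11.73 (median 11.05) in BMD MLCs, overlapping 1 BMD macrophage library (3.27 ± 1.40, adjusted p 0.0779). Without BMD macrophage replicate 3 it passed (4.64, adjusted p 0.0377, range 0.0142 to 0.655), as it did with quantile normalization (3.59, 0.0499) and a weight per library (2.35, 0.0142). With the weights Vcan passed too (2.03, 0.0199, range 0.0199 to 0.538), making 3 of 6 members, against 63.3% of all genes.

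Of 7 other classical genes, 4 rose and 1 fell: Chil3, a chitinase-like protein, by 10.40, Hp by 7.33, Ly6c2 by 5.51 and Plac8 by 4.29, while S100a4 fell by 3.25 (list median 4.29 against −0.01). Chemokine receptor genes that neighbour Ccr2 rose in 2 of 3: Ccr1 by 5.51 and Ccr3 by 4.93 (list median 4.93). Of 5 ligands, 2 rose, Ccl12 by 8.71 and Ccl8 by 4.02. Of the neutrophil markers 7 of 8 were higher, and of the microglia markers 4 of 4. Neutrophil markers, led by Ngp or S100a8, summed to 4.39, 3.88 and 1.72 in BMD macrophages, where 1, 1 and 4 of 8 were at the floor, against 12.22 to 15.07 in BMD MLCs; several classical genes, among them Chil3 and Hp, are also made by neutrophils. Their part in the result was not tested.

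ER-Hoxb8 cells in brain over ER-Hoxb8 macrophages in culture asked the same of the line. Here fibronectin rose. Fn1 read 4.98, 3.16, 4.86, 7.15, 5.62 and 8.40 in ER-Hoxb8 MLCs (median 5.30), each above the 3 ER-Hoxb8 macrophage libraries. The WTHox libraries were the higher 3. Of all genes, 14.4% were higher and 17.7% lower without overlap. Fn1 was 12.3-fold higher (3.62 ± 0.75, adjusted p 0.000652), the 1 of 6 members called, against 34.8% of all genes. With GFPHox libraries alone the change was 2.26 (adjusted p 0.0117), and with WTHox alone 4.98 (9.18e-06), within a range of 9.18e-06 to 0.0254 over alternatives.

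Ccr2 read 6.17, 6.57, 7.16, 5.00, 4.73 and 11.78 in ER-Hoxb8 MLCs (median 6.37). Replicate 6 stood far above the rest, and replicates 1, 2, 4 and 5 overlapped the highest ER-Hoxb8 macrophage library. The change of 2.14 ± 1.00 did not pass (adjusted p 0.095). It passed without ER-Hoxb8 macrophage replicate 2 (3.12, adjusted p 0.0407) or without ER-Hoxb8 MLC replicate 5 (2.58, adjusted p 0.0487), within a range of 0.0407 to 0.406. Among the ligands of CCR2 and CX3CR1, 4 of 5 rose and 1 fell, with Ccl12 higher by 13.29, Ccl8 by 10.82, Ccl7 by 8.77 and Ccl2 by 5.83, and Cx3cl1 down (−3.28; list median 8.77 against −0.15). Of the 7 classical genes 3 rose and 1 fell, led by Plac8 (6.37) and Chil3 (4.37), with S100a4 at −3.44 (list median 2.47). Of 11 patrolling genes 3 rose, Emr4 by 4.40, Cd36 by 3.22 and Itgal by 3.20. Neutrophil markers were higher in 7 of 8 and microglia markers in 3 of 4, from microglia marker sums of 6.72, 7.08 and 5.40 in ER-Hoxb8 macrophages, led by Tmem119, where 2 of 4 were at the floor in replicate 3; their part was not tested.

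**Figure D2:**
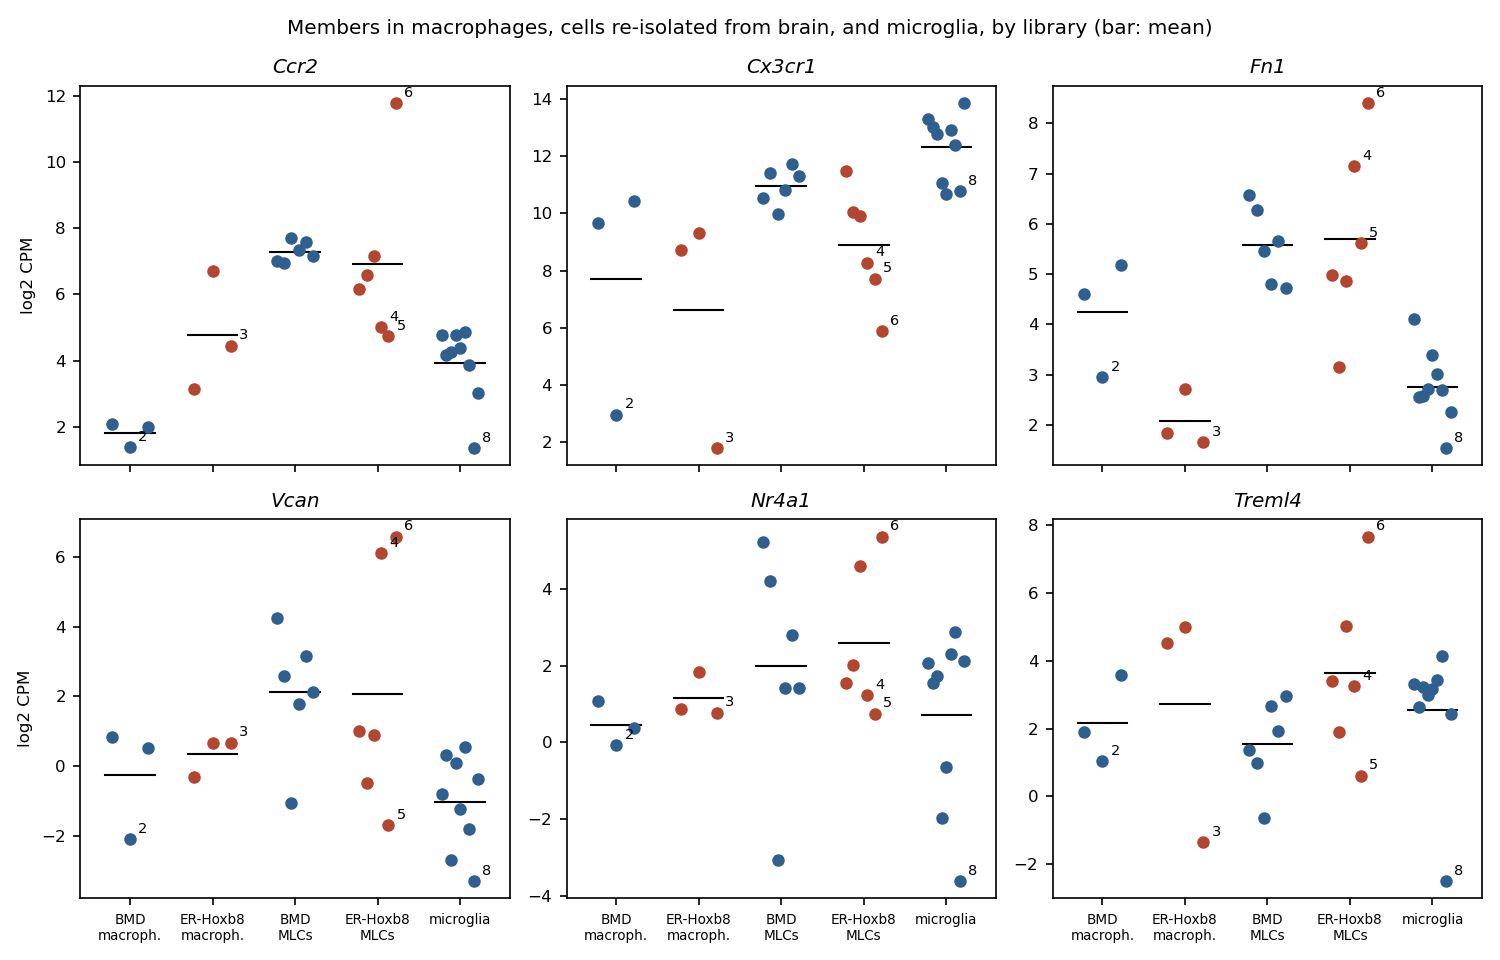
Log2 CPM of the 6 members in BMD macrophages, ER-Hoxb8 macrophages, BMD MLCs, ER-Hoxb8 MLCs and microglia; each dot is a library, each bar a group mean, and libraries that stand apart carry their replicate number. Cx3cr1 runs from 10.68 to 13.84 in microglia and from 5.89 to 11.49 in ER-Hoxb8 MLCs.

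BMD MLCs over microglia asked how far the engrafted marrow cells still differ from the resident cell. They carried more Ccr2, fibronectin and versican. Ccr2 ran from 1.36 to 4.87 (median 4.27) in microglia, with replicate 8 lowest, and every BMD MLC library lay above. Fn1 ran from 1.55 to 4.10 (median 2.69) in microglia and from 4.72 to 6.57 (median 5.56) in BMD MLCs, again with no overlap. Without overlap, 6.20% of all genes were higher and 5.20% lower. Vcan ran from −3.31 (at the floor) to 0.53 (median −0.82) in microglia and from −1.08 to 4.25 (median 2.34) in BMD MLCs, and these overlapped. Ccr2 rose by 3.35 ± 0.74 (adjusted p 0.00144), Fn1 by 2.82 ± 0.56 (0.000479) and Vcan by 3.17 ± 1.05 (0.0305). These 3 of 6 passed, against 20.5% of all genes.

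The Vcan call depended on single libraries. It was lost without BMD MLC replicate 1 (2.75, adjusted p 0.0906), 2 (3.08, 0.061), 5 (2.96, 0.0699) or 6 (3.17, 0.0522), without microglia replicate 3 (2.96, 0.0557), and without the YSWT microglia (2.94, 0.0603), within a range of 1.73e-05 to 0.0906. Without BMD MLC replicate 3 the Vcan change was 3.81. It also did not pass with no filter (0.0554), log2(CPM + 1) (1.95, 0.0561) or replicate number as a block (2.77, 0.0794), and the block gave 2.76 for Ccr2 (0.011, range 4.71e-06 to 0.011). Cx3cr1, the fractalkine receptor gene, did not pass (−1.35, adjusted p 0.428). In the list of 7 other classical genes, 5 rose and 0 fell, among them Chil3 by 4.77, Mgst1 by 4.53 and F13a1 by 4.40 (list median 3.72 against 0.06). Of the chemokine receptors Ccr1 rose by 1.40, while Ccr3 fell by 1.50. Neutrophil markers were higher in 6 of 8 and microglia markers lower in 3 of 4, with the sums given above; their part was not tested.

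ER-Hoxb8 MLCs over microglia asked the same of the line. Ccr2, fibronectin and versican were higher and Cx3cr1 lower in the ER-Hoxb8 MLCs. Cx3cr1 read 11.49, 10.05, 9.90, 8.28, 7.71 and 5.89 in ER-Hoxb8 MLCs (median 9.09) and ran from 10.68 to 13.84 (median 12.77) in microglia. Vcan read 1.00, −0.50, 0.89, 6.12, −1.69 and 6.59 (median 0.95). The 3 WTHox libraries held the 3 lowest Cx3cr1 levels, GFPHox replicate 1 overlapped microglia, and Vcan was high in replicates 4 and 6. For Ccr2 replicate 5, at 4.73, and for Fn1 replicate 2, at 3.16, overlapped microglia. Ccr2 rose by 2.96 ± 0.74 (adjusted p 0.00263), Fn1 by 2.93 ± 0.56 (0.000166) and Vcan by 3.10 ± 1.05 (0.0224), and Cx3cr1 fell by 3.42 ± 1.05 (0.0122). These 4 of 6 passed, against 33.9% of all genes.

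Calls differed with the library names. With GFPHox libraries alone, Ccr2 (2.70) and Fn1 (1.57, adjusted p 0.0277) passed, while Cx3cr1 (−1.82, 0.335, range 0.00192 to 0.335) and Vcan (1.50, 0.252, range 0.00522 to 0.252) did not. With WTHox libraries alone all 4 passed, at 3.23 for Ccr2, −5.01 for Cx3cr1, 4.29 for Fn1 and 4.71 for Vcan. Vcan was also lost without ER-Hoxb8 MLC replicate 4 (2.29, 0.0855) or 6 (2.20, 0.0915), and without replicate 5 it was 3.85. It did not pass with a replicate block (2.71, 0.0573) or with only the 2 groups fitted (3.10, 0.0568), and log2(CPM + 1) gave 2.18. With a weight per library Fn1 was 2.13 (0.0045, range 2.35e-06 to 0.0277), and with the block Ccr2 was 2.37 (0.017, range 0.00104 to 0.017). Without replicate 6 the Ccr2 change was 1.99 and the Cx3cr1 change −2.82. All 4 microglia markers were lower in ER-Hoxb8 MLCs, while 0 of 8 neutrophil markers passed with limma. Of the 7 other classical genes 4 rose (list median 2.93 against −0.10), of the 5 ligands 4 rose, with Ccl8 at 8.29, and of the 11 patrolling genes 6 rose, led by Cd36 (6.31) and Itgal (5.11).

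ER-Hoxb8 MLCs over BMD MLCs compared the 2 donors in brain. With limma 0 of 6 members passed and 0 of 6 had an unadjusted p under 0.05, against 15.2% of all genes called. The furthest apart were Treml4 (2.09 ± 1.14, adjusted p 0.228) and Cx3cr1 (−2.07 ± 1.15, adjusted p 0.237). Treml4 ran from −0.65 to 2.95 (median 1.65) in BMD MLCs and from 0.61 to 7.65 (median 3.32) in ER-Hoxb8 MLCs, so the groups overlapped, with ER-Hoxb8 MLC replicate 6 the highest. In contrast, 4 of 5 ligands rose: Ccl8 by 6.42, Ccl7 by 5.21, Ccl2 by 4.22 and Ccl12 by 3.02 (list median 4.22 against −0.22). Of the 7 classical genes 1 rose, Plac8 by 3.00. Neutrophil markers were lower in 3 of 8.

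The difference between the brain effects of the 2 donors was tested directly. With limma 0 of 6 members passed, 2 at an unadjusted p under 0.05, against 3.28% of all genes. For Ccr2 the brain effect was smaller in ER-Hoxb8 cells by a difference of −3.33 ± 1.41 (adjusted p 0.232). It passed without ER-Hoxb8 MLC replicate 6 (−4.30, adjusted p 0.0119) with GFPHox libraries alone (−3.60, 0.0282) and with a weight per library (−3.95, 0.00359), within a range of 0.00359 to 0.543. For Fn1 the difference was 2.29 (adjusted p 0.292), and it passed with WTHox libraries alone (3.65, 0.0221, range 0.0221 to 0.632). Of the ligands 3 of 5 passed with larger brain effects in ER-Hoxb8 cells, Ccl7 by 7.01, Ccl8 by 6.79 and Ccl2 by 5.63.

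In the order of mean levels across these 5 groups, neighbours overlapped for each of the 6 members. BMD MLCs were highest for Ccr2 and Vcan, ER-Hoxb8 MLCs for Fn1, Nr4a1 and Treml4, and microglia for Cx3cr1. Nr4a1, an immediate early gene that responds to tissue handling, ran from −3.07 (at the floor) to 5.21 in BMD MLCs, from 0.75 to 5.36 in ER-Hoxb8 MLCs and from −3.62 (at the floor, replicate 8) to 2.86 in microglia. Its medians were 2.11, 1.78 and 1.74, so the groups overlapped almost wholly. The 3 BMD macrophage libraries read 1.07, −0.08 and 0.37, and the ER-Hoxb8 macrophages 0.88, 1.83 and 0.78.

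Among guide lines, NTC macrophages over NTC progenitors gave the course of the members in control differentiation. Fn1 was below the filter on low values here, between −2.79 and −0.84 log2 CPM, so 5 members were tested. Cx3cr1 read 0.24, −1.01 and −0.39 in NTC progenitors and 7.66 and 7.78 in NTC macrophages. Ccr2 read 0.67, 1.34 and 1.40 against 7.38 and 7.28. Both receptor genes were far higher in macrophages, and the levels of the lone NTC macrophage replicate 2, 7.89 and 7.07 in its own normalization, stand beside them. Cx3cr1 was 276-fold higher (8.11 ± 0.38, adjusted p 5.48e-09) and Ccr2 73.2-fold (6.19 ± 0.33, 1.58e-08). Nr4a1 rose 9.93-fold (3.31 ± 0.54, 0.000177) and Treml4 7.22-fold (2.85 ± 0.53, 0.00051), while Vcan fell by 1.30 ± 0.43 (0.0164). These are 5 of 5 members, against 71.8% of all genes. Cx3cr1 and Treml4 passed the filter only through the macrophage libraries, where they were higher, so their calls add no support to that count. The Vcan call was lost without NTC progenitor replicate 1 (−1.05, 0.0569) or NTC macrophage replicate 3 (−0.74, 0.192), within a range of 0.00426 to 0.192.

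Other genes of these lists split. Of 7 classical genes 3 rose, led by S100a4 (7.06), and 3 fell: Plac8 (−10.18), Chil3 (−5.22) and Ly6c2 (−3.63). Of 8 patrolling genes tested, 6 rose and 1 fell, with Cd36, a scavenger receptor, up by 7.57 and Pou2f2 by 4.90, and Spn down (−4.06). Of 10 NR4A and immediate early genes 7 rose and 1 fell, with Atf3 up by 6.92 and Klf4, a zinc finger factor of monocyte differentiation, by 3.96 (list median 2.39 against −0.08). All 4 macrophage markers rose.

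Adar1 KO sgRNA 1 over NTC progenitors asked whether the guide changes the members before differentiation. With limma 0 of 5 passed, 1 at an unadjusted p under 0.05, against 0.936% of all genes. That gene was Vcan, at 3.29, 3.13 and 3.03 against 2.46, 1.34 and 2.03, without overlap (1.21 ± 0.38, adjusted p 0.35). Among the 7 other classical genes 1 fell, F13a1 (−1.31).

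In macrophages the same guide comparison showed lower Ccr2 and Nr4a1. Ccr2 read 6.07, 5.09 and 4.90 in Adar1 KO macrophages against 7.38 and 7.28 in NTC. Nr4a1 read 0.54, −0.12 and 0.43 against 3.12 and 3.16, with 3.25 in the lone NTC replicate 2. Every Adar1 KO library was below every NTC library for both genes, while 23.5% of all genes were lower and 29.2% higher without overlap. Ccr2 was 3.93-fold lower (−1.98 ± 0.33, adjusted p 0.00136) and Nr4a1 7.24-fold lower (−2.86 ± 0.54, adjusted p 0.00311). These 2 of 5 passed, against 21.8% of all genes, on 3 libraries against 2. In the inhibitor experiment, described below, untreated Nr4a1 levels had the opposite order.

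Cx3cr1 read 8.20, 8.13 and 8.77 against 7.66 and 7.78, higher without overlap but not called (0.65 ± 0.38, adjusted p 0.25). Treml4 read 4.48, 3.14 and 3.14 against 2.84 and 2.58 (0.88 ± 0.53, 0.268). Vcan read 1.75, 0.97 and 2.11 against 1.20 and 0.07 (0.97 ± 0.43, 0.127). Adar1 KO libraries were the higher group for Cx3cr1 and Treml4, while Vcan overlapped. With replicate number as a block, Cx3cr1 (0.89, 0.0467, up to 0.511 over alternatives) and Vcan (1.18) passed too, making 4 of 5 against 23.1% of all genes.

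The fall of Ccr2 was not shared by all classical genes. Of the 7 others 3 rose, Plac8 by 7.56, Chil3 by 3.06 and Ly6c2 by 2.92, and 1 fell, F13a1 (−2.64; list median 0.33 against 0.05). Alongside Nr4a1, 3 of 10 NR4A and immediate early genes fell and 0 rose: Egr2 (−2.03), Btg2 (−1.50) and Klf4 (−1.18; list median −0.12). The ligands went up in 2 of 3, Ccl2 by 5.26 and Ccl7 by 4.58. Ligands of CCR2 and CX3CR1 summed to 8.58, 8.76 and 7.97 in Adar1 KO macrophages, against 3.52 and 3.52 in NTC. Macrophage markers were lower in 3 of 4, at sums of 12.17, 12.36 and 12.31, led by Cd68, against 13.09 and 12.92, led by Csf1r, with none at the floor; their part was not tested.

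The KO effect in macrophages minus that in progenitors was tested as a difference. Ccr2 passed (−2.15 ± 0.44, adjusted p 0.00781), as did Nr4a1 (−2.95 ± 0.72, 0.0204), 2 of 5 members against 13.6% of all genes. For Ccr2 all 20 alternatives kept the call. For Nr4a1 it was lost without Adar1 KO progenitor replicate 3 (−2.73, 0.0543), Adar1 KO macrophage replicate 2 (−2.74, 0.0512), NTC macrophage replicate 1 (−2.97, 0.0628) or NTC macrophage replicate 3 (−2.93, 0.0517), and with no filter (0.0613), within a range of 0.00159 to 0.0628. Of the 10 immediate early genes 2 passed, both lower, Egr2 (−1.99) and Btg2 (−1.29).

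Within sgRNA 1, macrophages over their own progenitors gave 4 of 5 members called, against 71.3% of all genes. Cx3cr1 rose by 8.43 ± 0.34 (adjusted p 1.75e-09), Ccr2 by 4.04 ± 0.29 (1.95e-07) and Treml4 by 3.96 ± 0.48 (1.46e-05), and Vcan fell by 1.54 ± 0.38 (0.00337). Here too Cx3cr1 and Treml4 passed the filter only through the macrophage libraries, so their calls add no support to the count. Nr4a1 did not pass (0.37 ± 0.48, 0.508). It read −0.78, 0.18 and 0.35 in Adar1 KO progenitors, so the macrophages at 0.54, −0.12 and 0.43 overlapped them. Of the 10 immediate early genes 4 rose and 1 fell.

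With sgRNA 2, which has no NTC library in its normalization, 3 members were tested within the line. Cx3cr1 read 4.02, 3.77 and 3.78 in progenitors and 7.95, 8.27, 8.27, 7.98 and 8.34 in macrophages. Ccr2 read 1.69, 2.07 and 1.66 against 3.16, 4.12, 3.84, 3.68 and 4.24. Treml4 read −1.36, −1.13 and −2.12 against 3.60, 3.55, 3.72, 3.73 and 3.83. Macrophages were above progenitors in every library for all 3 genes, while 37.4% of all genes were higher and 40.1% lower without overlap. Treml4 rose by 5.22 ± 0.22 (adjusted p 5.5e-09), Cx3cr1 by 4.31 ± 0.10 (7.25e-11) and Ccr2 by 2.00 ± 0.23 (1.73e-05), 3 of 3 against 81.3% of all genes. Treml4 passed the filter only through the 5 macrophage libraries, where it was higher, so its call adds no support to that count. Fn1, Vcan and Nr4a1 were below the filter, with Nr4a1 at 0.12, −0.35 and 0.04 in progenitors and −0.12, −0.86, −1.19, −0.96 and −1.28 in macrophages. Of 11 immediate early genes 9 rose and 0 fell in this line.

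**Figure D3:**
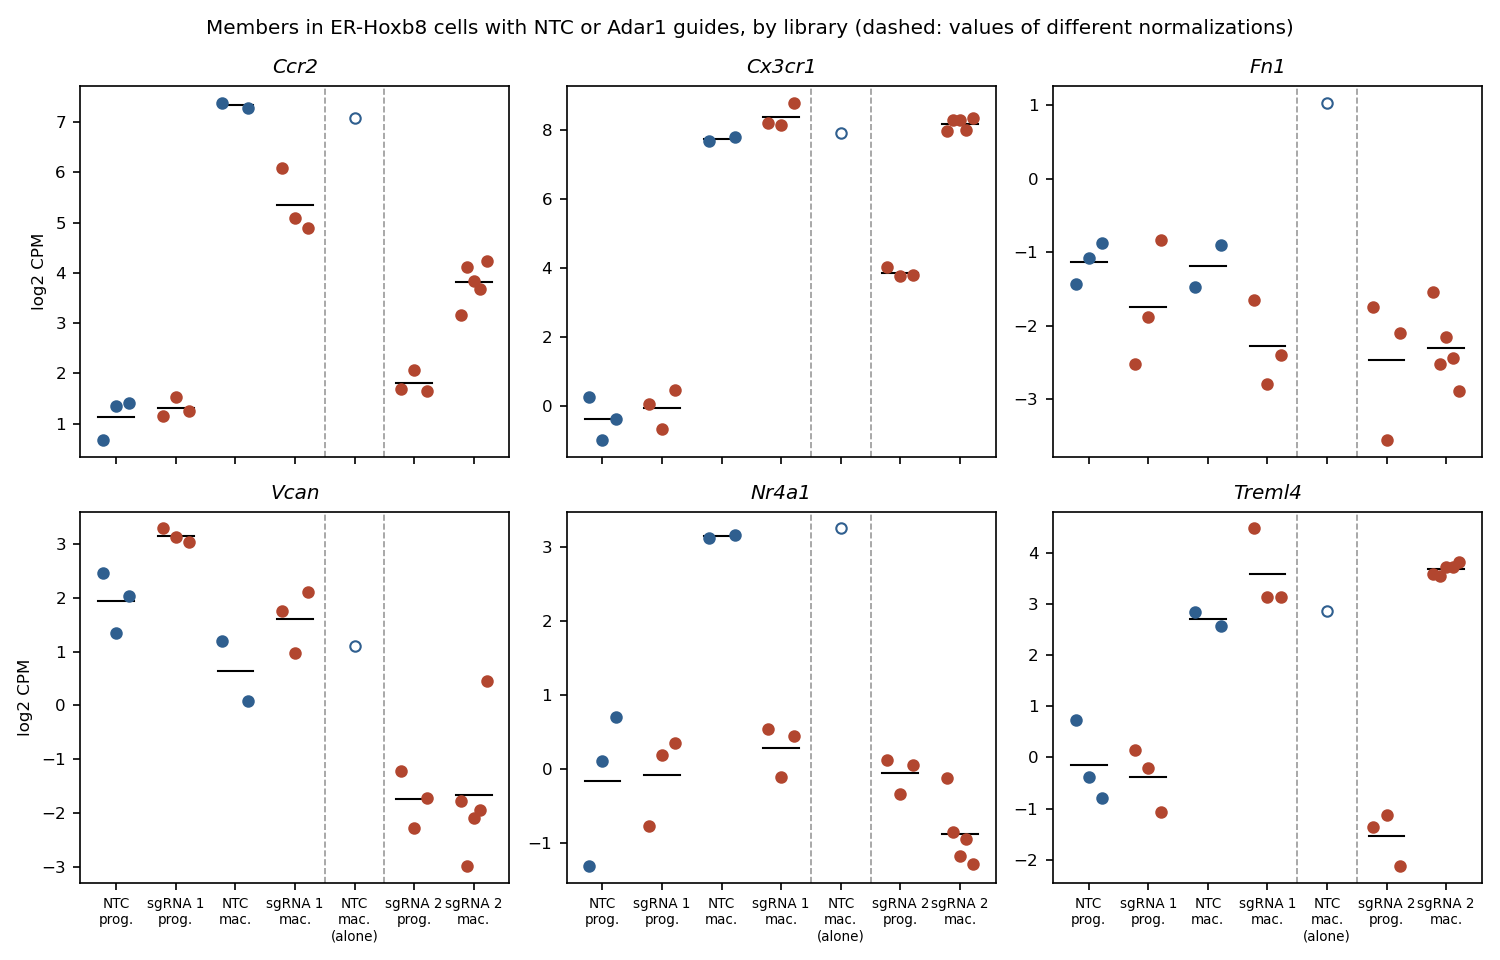
Log2 CPM of the 6 members in NTC, Adar1 KO sgRNA 1 and Adar1 KO sgRNA 2 progenitors and macrophages; each dot is a library, each bar a group mean, the open circle is NTC macrophage replicate 2, and dashed lines separate normalizations that cannot be compared. Nr4a1 sits at 3.12 and 3.16 in NTC macrophages and between −0.12 and 0.54 in sgRNA 1 macrophages.

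Ordered by mean among NTC and sgRNA 1 groups, Ccr2 ran from NTC macrophages to Adar1 KO macrophages to the progenitors, each step without overlap except that between the progenitors. Cx3cr1 and Treml4 were highest in Adar1 KO macrophages, then NTC macrophages, clear of each other and of the progenitors. Nr4a1 was highest in NTC macrophages, and the other 3 groups overlapped. Vcan was highest in Adar1 KO progenitors, and the other 3 groups overlapped in sequence.

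In the inhibitor experiment 4 members were tested. Fn1 (−2.78 to 0.21) and Nr4a1 (−2.78 to 0.17 in NTC and −2.78 to 1.47 in Adar1 KO) were below the filter on low values, with 1 library each above 1 CPM. Without baricitinib Nr4a1 read 0.00, 0.19 and 0.19 in Adar1 KO and −2.78, −0.19 and −1.61 in NTC, where replicates 1 and 3 were at or under the floor. The Adar1 KO libraries were the higher ones without overlap, the opposite order to the guide experiment. Where CPM is counted on the deposited values, with the lowest level left in, 7 libraries have Nr4a1 above 1. With that filter, added after these values were seen, Nr4a1 reached an adjusted p of 0.0384 in limma (1.66), where 24.9% of all genes were called. It entered mostly through Adar1 KO libraries, the untreated ones among them, so this is no test of the difference. With no filter Nr4a1 did not pass (0.0534), and these are its only alternatives. Adar1 KO over NTC without baricitinib took the sgRNA 1 comparison of macrophages to a second experiment. Ccr2 read 3.09, 4.53 and 5.11 in Adar1 KO and 7.94, 8.22 and 8.11 in NTC. Cx3cr1 read 8.91, 9.74 and 9.85 against 10.04, 10.28 and 10.04. The Adar1 KO libraries were lower for both without overlap, with replicate 1 lowest, while 21.6% of all genes were lower and 20.5% higher without overlap. Ccr2 was 14.4-fold lower (−3.85 ± 0.42, adjusted p 9.56e-08), which held in all 15 alternatives. Cx3cr1 fell by 0.62 ± 0.20 (adjusted p 0.023). These 2 of 4 passed, against 25.3% of all genes. In the guide experiment the Cx3cr1 difference between sgRNA 1 and NTC macrophages had the other sign (0.65, not called). The Cx3cr1 call was lost without NTC replicate 2 (−0.54, 0.0972) or Adar1 KO replicate 1 (−0.33, 0.248), with quantile normalization (−0.57, 0.0788) and with only the 2 groups fitted (0.106), within a range of 0.00821 to 0.248.

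Treml4 read 3.16, 3.29 and 4.10 in Adar1 KO and 3.62, 3.87 and 4.21 in NTC, overlapping (−0.38 ± 0.22, adjusted p 0.212), where the guide experiment gave 0.88, not called either. It was called without Adar1 KO replicate 3 (−0.67, 0.0233) and with a weight per library (−0.57, 0.0125), range 0.0125 to 0.605. These fits called 23.0% and 39.6% of all genes. Vcan read 0.95, 0.71 and 1.24 against −1.91, 0.25 and −0.08 (1.54 ± 0.83, 0.18). Adar1 KO libraries were the higher ones for Vcan, without overlap. All 7 other classical genes were called, 5 up and 2 down: Plac8 by 5.86, Ly6c2 by 4.22, Chil3 by 3.83, Hp by 1.44 and Mgst1 by 0.97 rose, and S100a4 fell by 2.09 and F13a1 fell by 1.92 (list median 1.44 against −0.02). Of 9 patrolling genes 2 rose, Pou2f2 by 1.19 and Itgal by 0.89, and 2 fell, Cd36 (−3.15) and Ceacam1 (−0.45). Of 11 immediate early genes 4 fell and 0 rose, led by Klf4 (−1.75) and Egr1 (−1.59). The ligands Ccl7 (3.19) and Ccl2 (1.26) rose.

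Along the doses, Ccr2 in Adar1 KO macrophages read 4.18, 6.14 and 5.24 at 0.0006 µM, 6.61, 6.74 and 5.11 at 0.016 µM, 7.55, 8.01 and 7.22 at 0.4 µM, and 4.65, 5.76, 5.37 and 4.82 at 10 µM. In NTC it ran from 8.10 to 8.33 at 0.0006 µM, from 8.25 to 8.28 at 0.016 µM and from 8.13 to 8.24 at 0.4 µM, and read 6.81, 6.86 and 6.48 at 10 µM. Adar1 KO Ccr2 was thus highest at 0.4 µM, its means running 4.24, 5.19, 6.15, 7.59 and 5.15 from 0 to 10 µM (SD 1.04, 0.98, 0.91, 0.40 and 0.51). NTC libraries up to 0.4 µM all lay between 7.94 and 8.33, above those at 10 µM. In the order of all 10 groups, the 4 NTC groups up to 0.4 µM and Adar1 KO at 0.4 µM overlapped in sequence and stood clear of the rest.

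**Figure D4:**
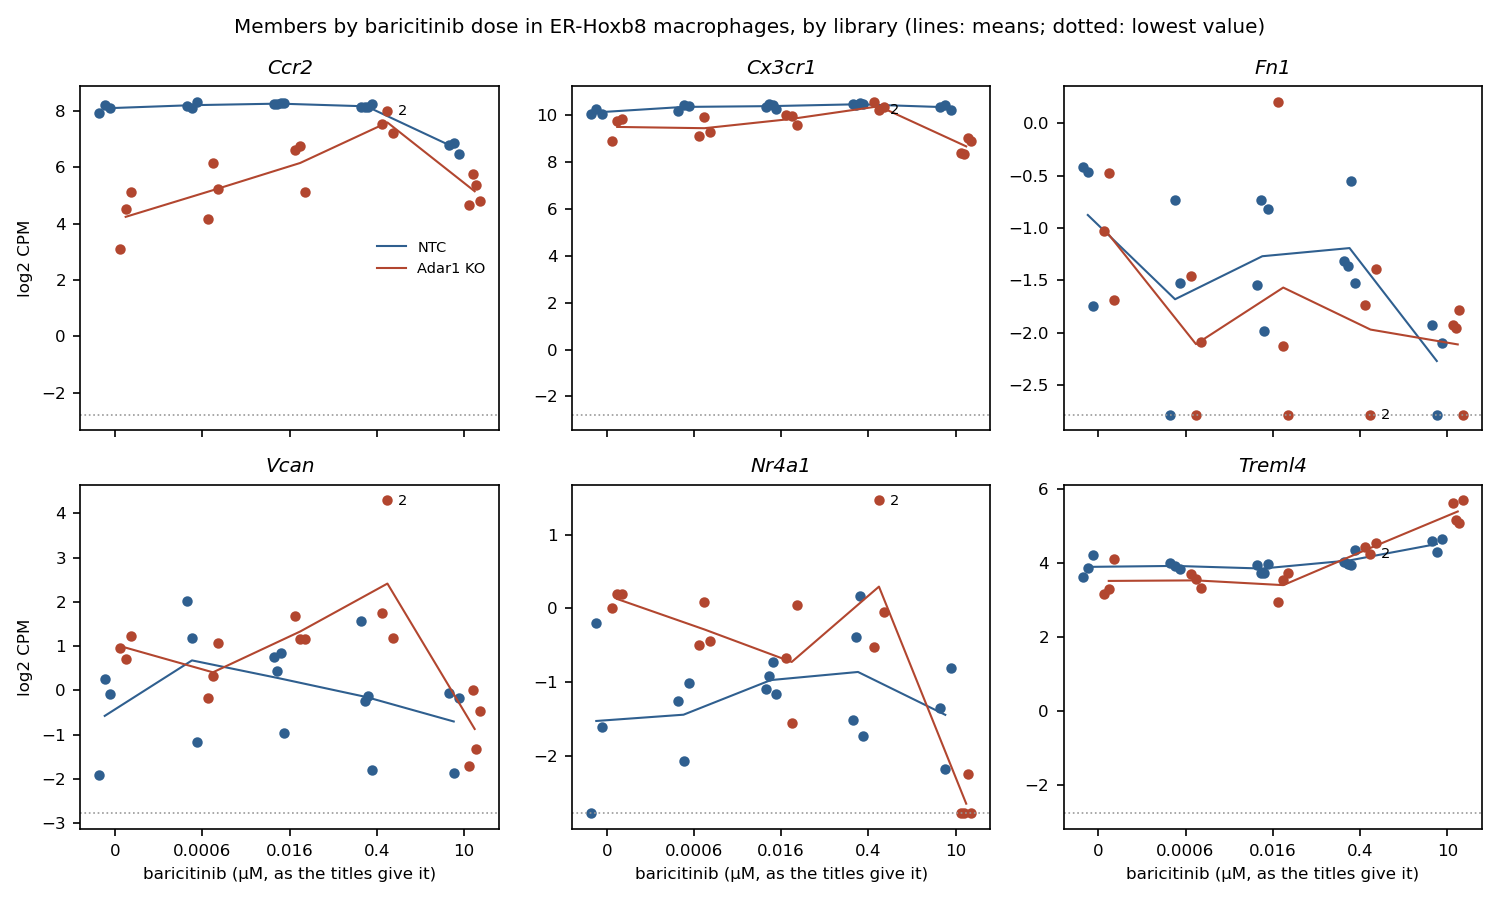
Log2 CPM of the 6 members by baricitinib dose in NTC and Adar1 KO macrophages; each dot is a library (3 or 4 a group), lines join group means, the dotted line is the lowest value of the normalization, and Adar1 KO replicate 2 at 0.4 µM is marked. Ccr2 in Adar1 KO runs from 3.09 to 5.11 without the inhibitor and from 7.22 to 8.01 at 0.4 µM.

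Baricitinib at 0.4 µM over 0 in Adar1 KO macrophages asked what the inhibitor changes in the targeted cells. Ccr2, Cx3cr1 and Treml4 rose. Cx3cr1 read 10.58, 10.23 and 10.34 at 0.4 µM, and Treml4 read 4.45, 4.24 and 4.55. For all 3 genes every treated library was above every untreated one, while 15.8% of all genes were higher and 14.4% lower without overlap. Ccr2 was 10.2-fold higher (3.35 ± 0.42, adjusted p 1.26e-06), Cx3cr1 rose by 0.88 ± 0.20 (0.0018) and Treml4 by 0.90 ± 0.22 (0.00324). These 3 of 4 passed, against 26.6% of all genes, and Vcan did not (1.45, 0.208). Treated replicate 2 stood apart from its group, as given above. Each of the 3 calls held in 6 of 6 fits that left out 1 library, that replicate among them. With only the 2 groups fitted, Cx3cr1 (0.128, range 0.000123 to 0.128) and Treml4 (0.137, range 1.97e-05 to 0.137) were lost, and the share of all genes called was 2.82%. Cx3cr1 was also lost with quantile normalization (0.58, 0.0721). Among the 7 other classical genes 3 rose, F13a1 by 2.55, S100a4 by 1.61 and Hp by 1.26, and 3 fell, Plac8 (−3.99), Chil3 (−2.73) and Mgst1 (−0.95; list median −0.95 against 0.03). Of 11 immediate early genes 4 rose, among them Klf4 (2.58) and Egr1 (1.28), and 1 fell, Atf3 (−1.80). Macrophage markers were lower in 2 of 4.

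At the same dose in NTC macrophages, with limma, 0 of 4 members passed and 0 had an unadjusted p under 0.05, against 0.00897% of all genes, which is 1 gene. That gene was the classical gene Chil3, which fell by 1.92. Cx3cr1 read 10.46, 10.45, 10.50 and 10.46 at 0.4 µM against 10.04, 10.28 and 10.04, without overlap (0.35). Likewise 5.40% of all genes were higher without overlap, and 6.60% lower. The difference between the 0.4 µM effects in Adar1 KO and in NTC was not tested.

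Adar1 KO over NTC at 0.4 µM gave 1 of 4 members called, against 13.5% of all genes. Vcan read 1.76, 4.30 and 1.19 in Adar1 KO and 1.56, −0.24, −0.12 and −1.80 in NTC, with replicate 2 of Adar1 KO far above the others and the groups overlapping. It rose by 2.57 ± 0.77 (adjusted p 0.0276). The call was lost without that replicate 2 (1.62, 0.258) and without NTC replicate 2 (2.54, 0.0549), 3 (2.58, 0.0521) or 4 (2.01, 0.0956), within a range of 0.0116 to 0.258. Without Adar1 KO replicate 3 the change was 3.18. Vcan was also lost with no filter (0.0537), a replicate block (2.29, 0.0578), a weight per library (1.30, 0.118) and only the 2 groups fitted (0.218), and log2(CPM + 1) gave 1.77. Ccr2 was lower in Adar1 KO without overlap but was not called (−0.57 ± 0.39, 0.356), and Treml4 (0.34, 0.284) and Cx3cr1 (−0.09, 0.814) did not pass. The weights called Ccr2 (−0.82, 0.0239, range 0.0239 to 0.61) and Treml4 (0.49, 0.0236, range 0.0236 to 0.478), 2 of 4 members, against 24.9% of all genes. In the list of 7 other classical genes, 3 rose, Ly6c2 by 3.51, Chil3 by 3.02 and Hp by 3.01, and S100a4 fell by 0.81 (list median 2.87 against 0.01).

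The dose of 10 µM gave another pattern. In NTC, Ccr2 was 2.6-fold lower than without the inhibitor (−1.38 ± 0.42, adjusted p 0.0276), the 1 of 4 members called, against 13.8% of all genes. No treated library overlapped an untreated one, while 21.2% of all genes were lower and 19.6% higher without overlap. The call was lost on leaving out any 1 of the 6 libraries: untreated replicate 1 (−1.45, 0.0676), 2 (−1.31, 0.0736) or 3 (−1.37, 0.0683), or treated replicate 1 (−1.43, 0.0623), 2 (−1.45, 0.061) or 3 (−1.26, 0.0879). It was lost with no filter too (0.0536), within a range of 0.000388 to 0.0879. Treml4 read 4.61, 4.30 and 4.64 against 3.62, 3.87 and 4.21 (0.62 ± 0.22, 0.057), higher without overlap, and was called without untreated replicate 3 (0.78, 0.0412), with a mean CPM above 5 (0.0476), with quantile normalization (0.66, 0.0489) and with a weight per library (0.55, 0.0133), range 0.0133 to 0.237. Of the 7 other classical genes 1 rose, F13a1 by 1.09, and 3 fell: Chil3 (−2.35), Hp (−1.69) and Mgst1 (−0.81; list median −0.81 against −0.00). Of 11 immediate early genes 3 fell, Egr2 (−2.11), Egr1 (−1.73) and Fos (−1.31).

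In Adar1 KO macrophages 10 µM over 0 changed 4 of 4 members, against 65.8% of all genes. Treml4 read 5.64, 5.17, 5.10 and 5.70 at 10 µM, and Cx3cr1 read 8.38, 8.36, 9.05 and 8.90. Treml4 was above each untreated library, while Cx3cr1 overlapped untreated replicate 1. Treml4 was 3.69-fold higher (1.88 ± 0.20, adjusted p 6.42e-09), and Cx3cr1 fell by 0.83 ± 0.19 (0.000342). Vcan read −1.71 (at the floor), 0.01, −1.32 and −0.46 and fell by 1.84 ± 0.77 (0.0389), and Ccr2 rose by 0.91 ± 0.39 (0.0435). The Ccr2 groups overlapped and the Vcan groups did not, while 33.4% of all genes were higher and 31.0% lower without overlap.

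These Ccr2 and Vcan calls depended on single libraries. Ccr2 was lost without untreated replicate 1 (0.33, adjusted p 0.475) or treated replicate 2 (0.70, 0.14) or 3 (0.83, 0.0875), and with no filter (0.0796), library weights (0.54, 0.133) or only the 2 groups fitted (0.101), within a range of 0.00655 to 0.475. Vcan was lost without untreated replicate 1 (−1.85, 0.0774), 2 (−1.97, 0.0585) or 3 (−1.70, 0.0989), or treated replicate 1 (−1.56, 0.103) or 3 (−1.69, 0.0804), and with no filter (0.0718), log2(CPM + 1) (−0.97, 0.0701), library weights (−1.59, 0.0569) or a replicate block (−1.56, 0.0842), within a range of 0.0064 to 0.103. Nr4a1, below the filter, read 0.00, 0.19 and 0.19 without the inhibitor, while at 10 µM 3 of 4 libraries sat at the lowest value, −2.78, and replicate 3 at −2.25, under the floor. Nr4a1 passed with no filter (−2.78, adjusted p 9.8e-05), one of 3 of 6 members called against 38.4% of all genes. With all 4 libraries at 10 µM under the floor, the size of this fall is not measured. With the filter on the deposited values (7.13e-05) Nr4a1 entered mostly through Adar1 KO libraries, the untreated ones among them. That fit is therefore no test of the fall.

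Among the 7 other classical genes, 2 rose and 5 fell in Adar1 KO at 10 µM: F13a1 rose by 2.92 and S100a4 by 0.54, and among the 5 were Plac8 (−7.79), Chil3 (−3.13) and Ly6c2 (−2.06; list median −1.06 against 0.05). Of 11 immediate early genes 4 rose, among them Ier2 (1.76) and Klf4 (1.68), and 6 fell, led by Atf3 (−4.20) and Zfp36 (−3.48). Macrophage markers, led by Cd68, were lower in 3 of 4, with sums of 11.59, 11.34, 11.29 and 11.42 against 12.19, 12.19 and 12.27 and none at the floor. Their part in the result was not tested.

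Adar1 KO over NTC at 10 µM gave 3 of 4 members called, against 45.3% of all genes. Cx3cr1 read 10.36, 10.44 and 10.23 in NTC and was 3.19-fold lower in Adar1 KO (−1.67 ± 0.19, adjusted p 4.62e-08). Ccr2 was 2.96-fold lower (−1.56 ± 0.39, 0.00176), and Treml4 was 1.84-fold higher (0.88 ± 0.20, 0.00085). None of the 3 genes overlapped between the lines, while 25.6% of all genes were higher and 25.3% lower without overlap. In the list of 7 other classical genes, 4 rose and 1 fell, led by Chil3 (3.04) and Hp (2.07), with S100a4 at −1.35 (list median 1.10 against 0.00). Of the immediate early genes 5 of 11 fell, led by Zfp36 (−2.90) and Atf3 (−2.01).

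The 10 µM effect in Adar1 KO minus that in NTC was tested as a difference, and 3 of 4 members passed, against 39.5% of all genes. For Ccr2 it was 2.29 ± 0.57 (adjusted p 0.00245), the level being lower with the inhibitor in NTC and higher in Adar1 KO. For Treml4 it was 1.26 ± 0.30 (0.00151) and for Cx3cr1 −1.05 ± 0.27 (0.00341). Vcan did not pass (−1.71, 0.238). Nr4a1 passed with no filter (−2.86, adjusted p 0.00859), making 4 of 6 members against 20.6% of all genes. All 4 Adar1 KO libraries at 10 µM and 2 of 3 NTC libraries at 0 and at 10 µM were at or under the floor. The size of this difference is therefore not measured. The filter on the deposited values (0.00606) was added after the values were seen and let Nr4a1 in mostly through Adar1 KO libraries, so it is no test of the difference. Of the 7 other classical genes 1 passed upward, F13a1 (1.83), and 2 downward, Plac8 (−6.00) and Ly6c2 (−2.25), at a list median of 0.13 against 0.06.

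**Figure D5:**
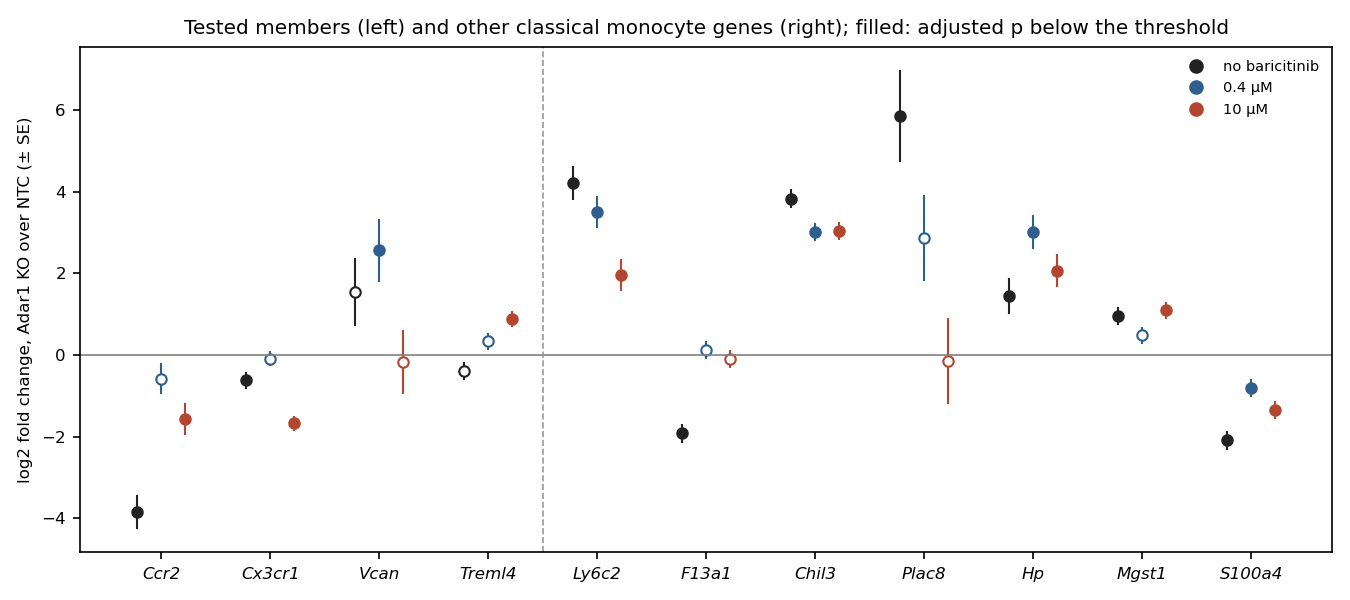
Log2 fold change, Adar1 KO over NTC macrophages, of the 4 members tested and the 7 other classical monocyte genes at 0, 0.4 and 10 µM baricitinib; points are estimates, bars are SE, and filled points passed the test. Ccr2 lies at −3.85, −0.57 and −1.56 from 0 to 10 µM, and Ly6c2 at 4.22, 3.51 and 1.97.

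Among the doses, Cx3cr1 was highest in NTC at 0.4 µM; the 6 groups with the highest means, Adar1 KO at 0.4 µM among them, overlapped in sequence and stood clear of the others. Adar1 KO at 10 µM had the lowest mean, and its replicate 3 (9.05) overlapped untreated Adar1 KO replicate 1 (8.91). For Treml4, Adar1 KO at 10 µM was highest, clear of NTC at 10 µM, and Adar1 KO at 0, 0.0006 and 0.016 µM were the lowest 3, overlapping one another. For Vcan all 10 groups overlapped in sequence.

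As a description of likeness over libraries that share groups and normalization, with no test, Pearson r was taken between members and with all other genes tested. Over the 33 inhibitor libraries Ccr2 and Cx3cr1 went together (0.814), while Cx3cr1 and Treml4 did not (−0.351). The genes most like Ccr2 there were Ptpn22, a lymphoid phosphatase, Clec12a and Dhrs9, those most like Cx3cr1 were Coro1a, Nsf and Eno1, those most like Treml4 were Ddx1, Ptcd3 and Fdps, and those most like Vcan were C130026I21Rik, Ip6k3 and Mob3c. The highest r were 0.94 for Ccr2 with Ptpn22, 0.96 for Cx3cr1 with Coro1a, 0.94 for Treml4 with Ddx1 and 0.76 for Vcan with C130026I21Rik. Over the 27 day 7 and brain libraries Fn1 and Vcan went together (0.757), as did Ccr2 with Vcan (0.642) and Fn1 (0.639), while Ccr2 and Cx3cr1 did not (−0.0108). The most alike there were Clec4a1 and Pde4b for Ccr2, and Arsb, Golm1 and Cdca7 for Cx3cr1. They were Srgn, A530032D15Rik and Gm16340 for Fn1, D16Ertd472e, Fn1 and Fam229b for Vcan, Zfp36, Lmbr1l and Arid5a for Nr4a1, and Trim34a, Pak1 and Trim30c for Treml4. P-values throughout measure only the spread between libraries.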

How the data were processed

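The deposited table holds log2 CPM for 29957 entries in 92 libraries, which the authors made with kallisto 0.46.0 on GRCm39, tximport, TMM factors of edgeR and a log2 step with a prior count of 2. One unnamed entry was left out. Libraries that share a lowest value were fitted together with limma 3.58.1 in R 4.3.3 (group means, trended variances), after a filter of CPM, the lowest level taken off, above 1 in at least 3 libraries (6 in the day 7 and brain set). P-values were adjusted by Benjamini-Hochberg over all genes tested in a comparison, and those below 0.05 are called. Fold changes carry SE. Replicate numbers were checked as pairs: of comparisons with 3 or more pairs, residuals of equal replicates correlated above 0.1 in every pair in 2, day 4 over ER-Hoxb8 progenitors (0.226, 0.372, 0.427) and sgRNA 1 over NTC progenitors (0.349, 0.158, 0.217), where a replicate block changed no member count. In sgRNA 1 over NTC macrophages both of the 2 pairs did so too (0.158, 0.153), and there the block moved the count from 2 to 4.

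Alternatives were other filters, no filter, quantile normalization, log2(CPM + 1), a fold limit, library weights, a replicate block, only the groups compared, subsets by library name and leaving out each library. Genes named are the members, Adar, up to 3 genes most like each member, and genes of lists on monocytes, chemokines, immediate early genes, matrix receptors, TREM genes and cell type markers; some genes of these lists are not reported. The members and lists were chosen with earlier results of these data known. Tables and figures used Python 3.11.15, numpy 2.4.6, pandas 2.3.3 and matplotlib 3.10.9.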

Additional observations from a re-analysis of the deposited data

Results flagged for a closer look

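In groups of 4 to 10 libraries, a library far from the others was looked for in 42 member and group pairs, and 3 were found; chance flags about 1 in 20 groups. Ccr2 read 11.78 log2 CPM in ER-Hoxb8 MLC replicate 6. Treml4 read −2.49 in microglia replicate 8, at the floor. Nr4a1 read −2.25 in Adar1 KO replicate 3 at 10 µM, where the other 3 libraries sat at the lowest value and all 4 were under the floor.

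Between groups, 5 differences in effect passed limma's test of the difference. The Adar1 KO effect in macrophages minus that in progenitors was −2.15 for Ccr2 and −2.95 for Nr4a1. The effect of 10 µM baricitinib in Adar1 KO minus that in NTC was 2.29 for Ccr2, −1.05 for Cx3cr1 and 1.26 for Treml4.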

How the results depend on the processing

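No call of a member turned direction under any alternative. Of 2261 member values under alternatives, 75 changed sign, with no call on either side, and 0 of 156 levels moved by more than 1 SD when the median replaced the mean. Fn1 was below the filter in the guide and inhibitor libraries, Nr4a1 with sgRNA 2 and in the inhibitor libraries, and Vcan with sgRNA 2, so these were tested there only under other filters. With no filter, Nr4a1 was called for Adar1 KO at 10 over 0 µM and for the 10 µM difference, and none of the others. A filter on the deposited values, added after seeing the data, tested Nr4a1 in the inhibitor libraries and called it in both of these and for Adar1 KO over NTC without baricitinib, giving 5 (4), 4 (3) and 3 (2). Nr4a1 passed that filter mostly through Adar1 KO libraries, so these counts test no difference. The cause of each change below was not tested, except that fewer members were tested with a mean CPM above 5. Counts are members called, with the reported count in brackets, and some changes by 1 member are not listed.

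With a weight per library counts were 6 (2) for monocytes over progenitors, 3 (0) for ER-Hoxb8 over BMD macrophages, 3 (1) for BMD MLCs over BMD macrophages, 1 (0) for the brain difference, 2 (1) for Adar1 KO over NTC at 0.4 µM, 2 (1) for NTC at 10 over 0 µM and 2 (4) for Adar1 KO at 10 over 0 µM. The share of all genes called rose in each: 43.6%, 18.3%, 63.3%, 23.1%, 24.9%, 32.1% and 68.2%, in that order. Reported shares were 13.8%, 1.96%, 30.6%, 3.28%, 13.5%, 13.8% and 65.8%. With only the groups compared, counts were 6 (2) for monocytes, 1 (2) for Adar1 KO over NTC without baricitinib, 0 (1) at 0.4 µM and 1 (3) for Adar1 KO at 0.4 over 0 µM. In that order 32.6%, 23.3%, 2.03% and 2.82% of all genes were called, where 13.8%, 25.3%, 13.5% and 26.6% were reported. Quantile normalization gave 2 (1) for BMD MLCs over BMD macrophages, 1 (2) for Adar1 KO over NTC without baricitinib and 2 (1) for NTC at 10 over 0 µM. Here 28.6%, 25.8% and 15.2% of all genes were called, where 30.6%, 25.3% and 13.8% were reported. A mean CPM above 5 gave 3 (5) for NTC macrophages over progenitors, 1 (2) for sgRNA 1 over NTC macrophages, 1 (2) for the KO difference, 0 (1) for Adar1 KO over NTC at 0.4 µM and 2 (1) for NTC at 10 over 0 µM. Of the genes tested, 74.8%, 24.1%, 15.3%, 15.2% and 17.9% were called, where 71.8%, 21.8%, 13.6%, 13.5% and 13.8% were reported. Under this filter Vcan and Nr4a1 were not tested in these comparisons, and the 4 lower counts listed lost only these genes. No filter gave 1 (2) for the KO difference, 0 (1) for Adar1 KO over NTC at 0.4 µM, 0 (1) for NTC and 3 (4) for Adar1 KO at 10 over 0 µM, and 4 (3) for the 10 µM difference. Then 5.33%, 6.16%, 6.46%, 38.4% and 20.6% of all genes were called, where 13.6%, 13.5%, 13.8%, 65.8% and 39.5% were reported.

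A fold limit of 2 log2 units, with estimates unchanged, gave 1 (2) for sgRNA 1 over NTC macrophages, 1 (2) and 0 (3) for Adar1 KO over NTC at 0 and 10 µM, 0 (1) for NTC at 10 over 0 µM, 1 (3) and 0 (4) for Adar1 KO at 0.4 and 10 over 0 µM, and 1 (3) for the 10 µM difference. The share of all genes called fell in each: 4.02%, 3.87%, 3.14%, 0.834%, 1.93%, 14.7% and 7.11%, in that order. Reported shares were 21.8%, 25.3%, 45.3%, 13.8%, 26.6%, 65.8% and 39.5%. A replicate block gave 4 (2) for sgRNA 1 over NTC macrophages and 0 (1) for Adar1 KO over NTC at 0.4 µM. It called 23.1% and 11.9% of all genes there, where 21.8% and 13.5% were reported. GFPHox libraries alone gave 2 (4) for ER-Hoxb8 MLCs over microglia and 1 (0) for the brain difference, and WTHox alone 1 (0) for the latter. The shares of all genes called were 26.7%, 6.76% and 3.71%, in that order. Without ER-Hoxb8 progenitor replicates 1 and 2, an alternative added after seeing the data, a single library of that group remained, so no count is given. With log2(CPM + 1), 25 of 25 counts were within 1.5 times the reported ones.

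Leaving out 1 library gave 2 to 5 for ER-Hoxb8 over marrow progenitors, 0 to 2 for day 4 over ER-Hoxb8 progenitors, 2 to 3 for day 4 over monocytes, 1 to 2 for both brain over culture comparisons, 2 to 3 for BMD MLCs and 3 to 4 for ER-Hoxb8 MLCs over microglia, 0 to 1 for the brain difference, 4 to 5 for NTC macrophages over progenitors, 1 to 2 for the KO difference, 1 to 3 and 0 to 1 for Adar1 KO over NTC at 0 and 0.4 µM, 0 to 1 for NTC and 2 to 4 for Adar1 KO at 10 over 0 µM, and the reported count elsewhere.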

Other observations

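Border macrophage markers (Mrc1, Lyve1, Cd163 and Pf4) separated BMD MLCs from microglia. Their sums, led by Mrc1, ran from 10.54 to 11.14 log2 CPM in BMD MLCs and from 3.32 to 6.66 in microglia, and 3 of 4 were called higher. In ER-Hoxb8 MLCs the sums ran from 1.39 to 9.97, and 1 of 4 was called higher than in microglia and 3 of 4 lower than in BMD MLCs.

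TREM family genes are relatives of Treml4. In NTC macrophages over progenitors, where 71.8% of all genes were called, 3 of 5 rose, among them Tyrobp, the shared adaptor (9.77), and Trem2 (8.34), and 2 fell. In Adar1 KO sgRNA 1 over NTC macrophages, where 21.8% of all genes were called, 3 of 5 rose, Trem3 (3.00), Treml2 (2.51) and Trem1 (1.64), while Treml4 did not pass. Of the chemokine receptors near Ccr2, Ccr1 rose there by 2.81. Of 11 matrix receptor and versican-cleaving protease genes 8 were tested in BMD MLCs over microglia, where 20.5% of all genes were called. Of these, 3 rose, Itga4 (4.34), Cd44 (3.31) and Sdc4 (2.18), and 3 fell, Adamts1 (−5.71), Itgb3 (−4.47) and Itgb1 (−0.92), at a list median of 0.57 against 0.06.

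NTC macrophage replicate 2, alone in its normalization, read 1.03 for Fn1, 1.10 for Vcan, 2.86 for Treml4 and 5.86 for Adar.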
